A study of Mus musculus with 2 samples.

Results

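The 33 genes described here make, sense, take up, store and export cholesterol, and all 33 were found among 21473 mouse protein-coding genes in both libraries of embryonic forebrain. They were taken by symbol and sorted by role into 18 synthesis enzymes, 7 regulators, 4 genes of uptake and movement inside the cell, and 4 genes of export and removal. The libraries were made from total RNA longer than 200 bases, isolated from healthy mouse forebrain at embryonic day 13.5 (strain B6NCrl, male and female embryos pooled), with 10 ng of RNA per library. They form 1 group, replicate 1 and replicate 2, which the labels call biological replicates and which carry the same donor code. Since there is only 1 group, nothing can be tested between conditions and no p-value is printed. Errors are the SD of both libraries (n = 2), which may be partly technical.

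Cholesterol is built from acetyl-CoA through mevalonate, farnesyl diphosphate, squalene and lanosterol. When sterols in the endoplasmic reticulum are low, SCAP escorts SREBP transcription factors to the Golgi, where they are cut and released to switch on the synthesis genes, while INSIG proteins hold SCAP back when sterols are plentiful. LXR receptors respond to oxidised sterols and switch on export genes. Lipoprotein cholesterol from the blood hardly enters the brain, which makes its own from an early stage, and in the adult brain neurons clear the excess as 24-hydroxycholesterol.

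Many synthesis genes share short promoter motifs, and 5 promoters are printed here because they show different numbers of them: 4 boxes, 3 boxes, 1 box in a synthesis gene, 1 box in the regulator that drives them, and none in an export gene. The sequences are from RefSeq (build GRCm38.p6), 250 bases before to 50 after the start, read 5′ to 3′ on the gene's strand. Capitals mark the CCAAT box bound by the factor NF-Y, or its reverse complement ATTGG, and in Hmgcs1 the SREBP motif TCACNCCAC.
Hmgcs1 (chr13:119690101-119690400, strand +): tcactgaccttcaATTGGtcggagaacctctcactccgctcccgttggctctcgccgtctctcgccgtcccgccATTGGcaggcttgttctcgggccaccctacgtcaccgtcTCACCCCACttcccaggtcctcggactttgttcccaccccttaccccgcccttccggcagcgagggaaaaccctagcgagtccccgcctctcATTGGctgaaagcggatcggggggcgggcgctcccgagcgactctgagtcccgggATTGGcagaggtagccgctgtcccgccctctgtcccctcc
Msmo1 (chr8:64733529-64733828, strand -): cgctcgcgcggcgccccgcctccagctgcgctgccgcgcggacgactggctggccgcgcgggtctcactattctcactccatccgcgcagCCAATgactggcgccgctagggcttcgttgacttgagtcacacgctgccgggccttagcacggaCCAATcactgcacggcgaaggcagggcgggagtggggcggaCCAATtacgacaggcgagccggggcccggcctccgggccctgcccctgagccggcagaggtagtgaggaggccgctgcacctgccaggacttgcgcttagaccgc
Cyp51 (chr5:4104648-4104947, strand -): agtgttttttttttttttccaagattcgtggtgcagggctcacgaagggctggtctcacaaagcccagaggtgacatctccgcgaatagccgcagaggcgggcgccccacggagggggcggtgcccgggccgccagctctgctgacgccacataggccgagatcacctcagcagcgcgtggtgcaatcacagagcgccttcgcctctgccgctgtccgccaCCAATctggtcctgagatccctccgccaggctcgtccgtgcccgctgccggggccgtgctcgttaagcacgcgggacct
Srebf2 (chr15:82147019-82147318, strand +): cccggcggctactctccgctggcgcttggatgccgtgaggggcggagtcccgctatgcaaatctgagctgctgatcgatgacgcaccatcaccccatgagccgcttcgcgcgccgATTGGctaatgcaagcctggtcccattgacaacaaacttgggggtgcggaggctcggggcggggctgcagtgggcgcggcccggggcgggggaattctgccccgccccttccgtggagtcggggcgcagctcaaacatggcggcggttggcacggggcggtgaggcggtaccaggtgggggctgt
Abca1 (chr4:53159846-53160145, strand -): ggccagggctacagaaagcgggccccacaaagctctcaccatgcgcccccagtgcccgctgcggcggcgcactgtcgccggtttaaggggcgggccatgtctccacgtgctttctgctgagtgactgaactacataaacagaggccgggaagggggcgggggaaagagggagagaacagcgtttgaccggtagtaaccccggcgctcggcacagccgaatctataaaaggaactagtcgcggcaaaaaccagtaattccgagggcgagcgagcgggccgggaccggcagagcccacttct

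Searched on both strands, CCAAT was present in promoters of 14 of the 15 synthesis genes that the promoter table holds, or 93.3%. The share was 41.1% of all 27025 genes in the table and 43.8% of its 10080 genes at a mean of 1 TPM or more. TPM is a relative abundance corrected for transcript length. Acat2 was the 1 synthesis gene without a match. Of 15 synthesis genes, 13 had a CCAAT box that began within 100 bases before the start, against 22.03% of all genes, and 9 had 2 or more in 1 promoter, against 13.3% of all genes. For neither count was the share among genes at 1 TPM or more computed. Counting the start as 0, Hmgcs1 had boxes at -237, -176, -45 and 10, Msmo1 at -160, -96 and -55, and Cyp51 at -29. Mvk had 5 boxes, the most of any member, between -173 and -14. Where a gene had several promoters, a match in any of them was counted. With only the promoter whose start lay within 1000 bases of the transcripts holding the most TPM of the gene, the count was 13 of 15, a count for which no background was computed. The gene lost was Pmvk, whose box lay at a start with no TPM near it, while its other promoter, with 63.0 and 60.1 TPM near it, had none. The boxes of Dhcr7 lay at a start 588 bases from that of its leading transcript.

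Among the regulators, 4 of 7 had a CCAAT box (Srebf1, Srebf2, Insig1 and Insig2), and Scap, Nr1h2 and Nr1h3 had none. All 3 boxes of Insig2 lay in the promoter whose start held 0.61 TPM in replicate 1 and 0 in replicate 2, and the promoters near the starts with 37.1 and 26.6 TPM had none. In Srebf1 the promoter of the upstream coding form had none. Npc2 and Soat1 each had at least 1. Of 3 export genes in the table, Cyp46a1 had 1, and Abca1 and Apoe had none. The SREBP motif TCACNCCAC was found in Hmgcs1 only among 27 members with a promoter, at -137, against 1.44% of all genes and 1.40% of those at 1 TPM or more. With the shorter motif CACNCCAC, which every copy of the longer one contains, Acat2 and Insig1 were added, against 7.12% of all genes and 7.76% of those at 1 TPM or more. The GC box GGGCGG, a site of Sp1, was in 14 of 15 synthesis genes, against 38.2% of all genes and 70.2% of those at 1 TPM or more. The E-box CACGTG was in 3 of 15 (Dhcr7, Hsd17b7 and Sc5d), against 8.09% of all genes and 11.6% of those at 1 TPM or more. The match in Dhcr7 was not in the promoter nearest its main start. A match describes these letters and no more. Fdft1, Fdps, Sqle, Abcg1, Npc1 and Stard4 were not in the table.

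**Figure D1:**
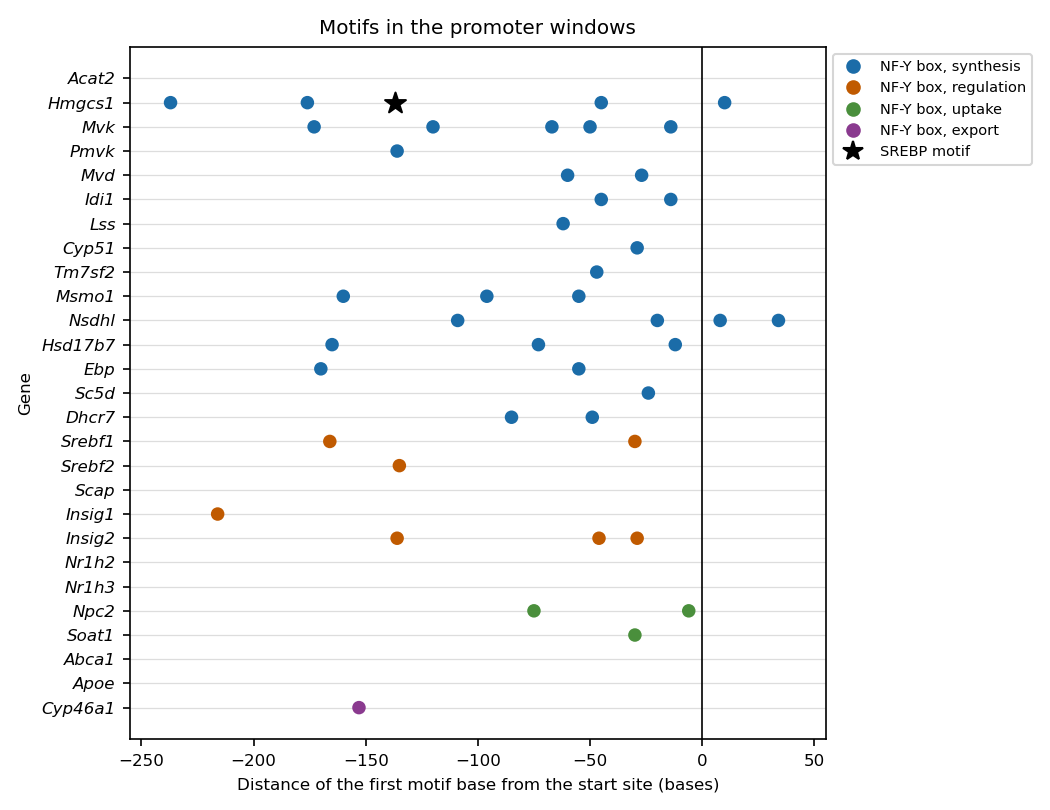
Positions of the CCAAT box (NF-Y box, circles) and the SREBP motif (star) in promoter windows of 27 members, by distance of the first base from the start site in bases. Boxes were found in 14 of 15 synthesis genes, and in 13 of them a box began within 100 bases before the start.

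All 33 genes reached 1 TPM in both libraries, as did 59.0% of protein-coding genes. The mean was at least 10 TPM for 31 members and at least 100 TPM for 8, and 32 members lay above the median of all protein-coding genes. Their median was 40.5 ± 2.82 TPM, against 19.6 ± 1.12 TPM over the 12892 protein-coding genes at a mean of 1 TPM or more and 3.92 ± 0.269 TPM over all of them. The synthesis enzymes had a median of 58.0 ± 2.83 TPM, the regulators 44.1 ± 2.00 TPM, the uptake genes 16.3 ± 1.03 TPM and the export genes 17.3 ± 1.73 TPM. The library medians of uptake and export overlapped. Synthesis genes held 74.8% of the members' summed TPM in replicate 1 and 74.5% in replicate 2.

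**Figure D2:**
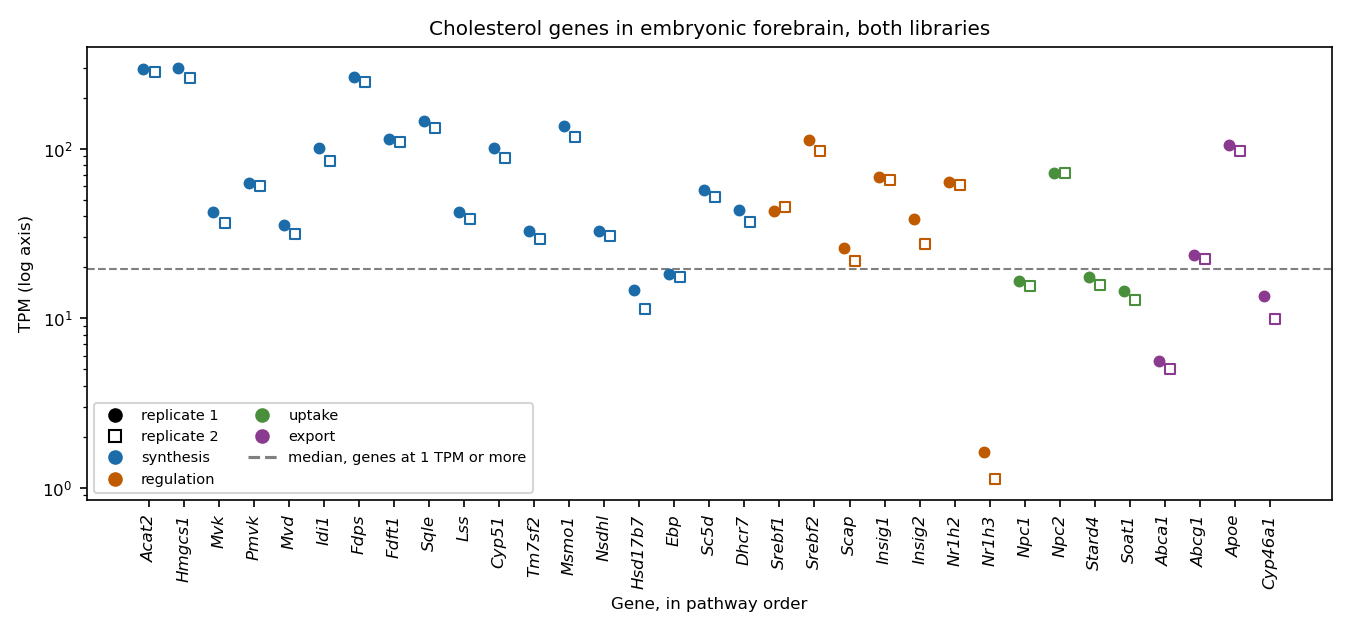
TPM of each member (log axis) in replicate 1 (filled circles) and replicate 2 (open squares), in pathway order and coloured by role; the dashed line is the median of protein-coding genes at 1 TPM or more, 19.6 TPM. Acat2, Hmgcs1 and Fdps stand highest, and Nr1h3, at 1.63 and 1.12 TPM, lowest.

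The first 7 enzymes, from acetyl-CoA to farnesyl diphosphate, were unequal. Acat2, the cytosolic thiolase that joins 2 acetyl-CoA molecules, had 296 TPM in replicate 1 and 284 in replicate 2 (chromosome 17, 12942890 to 12960747, GRCm38). Hmgcs1, the synthase that makes HMG-CoA, had 301 and 261 TPM (chromosome 13, 119690379 to 119708260). Fdps, which makes farnesyl diphosphate, had 265 and 249 TPM (chromosome 3, 89093588 to 89101959). These 3 genes lay above at least 97.4% of protein-coding genes and together held 46.9% and 47.5% of all synthesis TPM. Their order changed between libraries: Hmgcs1 led in replicate 1 and Acat2 in replicate 2.

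The isomerase gene Idi1 had 101 TPM in replicate 1 and 84.8 in replicate 2. The remaining genes of this stretch were lower. Pmvk, which adds the second phosphate to mevalonate, had 63.0 and 60.1 TPM. The mevalonate kinase gene Mvk had 42.3 and 36.3 TPM. The decarboxylase gene Mvd had 35.3 and 31.3 TPM, so Hmgcs1 was 8.53-fold and 8.33-fold above it. Mvk and Mvd came close without overlap, since replicate 2 of Mvk (36.3 TPM) lay just above replicate 1 of Mvd (35.3 TPM).

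Sqle, the squalene epoxidase that performs the first oxygen-dependent step, had 145 TPM in replicate 1 and 132 in replicate 2. Fdft1, squalene synthase and the first enzyme committed to sterols, had 114 and 109 TPM. Lss, which folds squalene epoxide into lanosterol, had 42.3 and 38.7 TPM. Sqle was above Fdft1, and Fdft1 above Lss, in each library without overlap.

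After lanosterol the levels were lower on the whole. The median of these 8 genes was 35.9 ± 3.02 TPM, against 92.7 ± 11.3 TPM for the 7 genes of the mevalonate stretch. The difference of medians of log2(TPM + 1), mevalonate stretch minus post-lanosterol steps, was 1.39 in replicate 1 and 1.31 in replicate 2. Without Acat2, which has a near-identical copy, it averaged 1.06. The first 7 genes held 60.0% and 60.3% of synthesis TPM, and these 8 held 23.6% and 23.0%.

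The C4-methyl oxidase gene Msmo1 led the post-lanosterol genes at gene level with 135 TPM in replicate 1 and 118 in replicate 2. Cyp51, the 14-demethylase, had 100.5 and 87.8 TPM. Both act early, on methylated sterols. Sc5d, the desaturase of the penultimate step in one branch, had 57.0 and 51.9 TPM. Dhcr7, whose loss in humans causes Smith-Lemli-Opitz syndrome, had 43.3 and 37.0 TPM. The X-linked decarboxylating dehydrogenase gene Nsdhl had 32.9 and 30.7 TPM, and Tm7sf2, a C14-sterol reductase, had 32.8 and 29.4 TPM, so their ranges overlapped. With coding transcripts only they did not, since Tm7sf2 had 21.2 and 19.6 TPM and Nsdhl 32.8 and 30.4 TPM. The isomerase gene Ebp had 18.1 and 17.6 TPM. The ketoreductase gene Hsd17b7 was the lowest enzyme at 14.8 and 11.4 TPM, so Acat2 stood 20.1-fold and 24.9-fold above it.

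C14-sterol reduction can also be performed by the lamin B receptor, encoded by Lbr, a gene outside the 33. Lbr had 85.9 TPM in replicate 1 and 76.9 in replicate 2. The ratio of Tm7sf2 over Lbr was 0.381 in replicate 1 and 0.382 in replicate 2.

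Srebf2, the SREBP gene most tied to sterol synthesis, had 113 TPM in replicate 1 and 97.3 in replicate 2 (chromosome 15, 82147181 to 82205379). Srebf1, whose products lean towards fatty acid genes, had 42.7 and 45.5 TPM and was the only member higher in replicate 2. The ratio of Srebf2 over Srebf1 was 2.64 and 2.14, or 1.40 and 1.10 on the log2 scale, and the log2 mean was 2.13 with coding transcripts only. The escort gene Scap had 25.9 and 21.9 TPM.

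Insig1, itself a target of SREBP, had 67.8 TPM in replicate 1 and 65.7 in replicate 2. Insig2 had 38.7 and 27.3 TPM, the widest gap between libraries of any member on the scale of log2(TPM + 1). The ratio of Insig1 over Insig2 was 1.75 and 2.41, which on the log2 scale was 1.04 ± 0.32. Insig1 was above Insig2 in both libraries.

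The LXR receptors differed most. Nr1h2, the gene of the widely expressed LXR-beta, had 63.8 TPM in replicate 1 and 61.4 in replicate 2. Nr1h3, the gene of LXR-alpha, had 1.63 and 1.12 TPM, from 59 and 41 estimated counts. It was the 1 member with a mean under 100 counts, and 42.0% of protein-coding genes were lower. The ratio of Nr1h2 over Nr1h3 was 39.1 and 54.8, a log2 mean of 5.53 ± 0.34, and the log2 mean was 4.75 with 1 added to each TPM.

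Npc2, the soluble lysosomal protein that hands cholesterol to NPC1, had 71.8 TPM in replicate 1 and 71.7 in replicate 2, nearly the same in both. Npc1, the membrane partner, had 16.7 and 15.5 TPM. The ratio of Npc2 over Npc1 was 4.31 and 4.62, a log2 mean of 2.16 ± 0.070, and the log2 mean was 2.78 with coding transcripts only. Stard4, a cytosolic sterol carrier, had 17.5 and 15.7 TPM. Soat1, which esterifies cholesterol for storage, had 14.5 and 12.8 TPM. Npc1, Stard4 and Soat1 lay close together, and the ranges of Npc1 and Stard4 overlapped, though not with coding transcripts only, where Npc1 had 11.3 and 9.68 TPM and Stard4 16.8 and 15.1 TPM. The difference of medians, synthesis minus uptake, was 1.75 and 1.77 on the log2 scale.

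Apoe, the main apolipoprotein made inside the brain, led the export genes with 105 TPM in replicate 1 and 96.6 in replicate 2. Abcg1, which moves cholesterol to lipid-containing particles, had 23.6 and 22.4 TPM. Cyp46a1, the 24-hydroxylase of neurons, had 13.6 and 9.86 TPM. Abca1, which loads cholesterol onto lipid-poor apolipoproteins, had 5.59 and 5.03 TPM and was the lowest. The ratio of Abca1 over Abcg1 was 0.237 and 0.225. Apoe stood 18.7-fold and 19.2-fold above Abca1. The difference of medians, synthesis minus export, was 1.69 and 1.83, and synthesis minus regulation was 0.48 and 0.29. With the mean over members in place of the median, synthesis minus regulation averaged 1.04.

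Genes that accompany the 33 were read from lists of the same pathway. Of 13 other synthesis and isoprenoid genes, 11 reached 1 TPM in both libraries. The highest were the mitochondrial thiolase gene Acat1 (105 ± 2.56 TPM) and Por (93.1 ± 13.2 TPM), the electron donor of cytochrome P450 enzymes, and the lowest was Idi2 (0.030 ± 0.0424 TPM). All 10 other SREBP machinery genes reached it, from Rnf145 (66.2 ± 5.77 TPM) and Faf2 (55.1 ± 1.5 TPM) to Mylip (2.57 ± 0.891 TPM), whose product degrades lipoprotein receptors. Among 14 other uptake and movement genes 11 did, led by Gramd1a (124 ± 10.4 TPM), which moves sterol from the plasma membrane to the endoplasmic reticulum, and the receptor gene Lrp1 (57.5 ± 6.53 TPM), while Soat2 had 0.040 ± 0.0566 TPM. Coding transcripts held 55.2 and 54.1 TPM of Gramd1a and only 20.7 and 15.9 TPM of Lrp1, which then fell below Stard3 (28.8 and 31.3 TPM).

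Of 13 other export and lipoprotein genes, 8 reached 1 TPM in both libraries, led by the transfer protein gene Pltp (28.7 ± 1.07 TPM) and Clu (23.0 ± 6.07 TPM). The lowest was Apob (0.060 TPM on average), the core protein of liver and gut lipoproteins. Of 7 other genes of sterol-modifying enzymes, mostly hydroxylases, 3 reached 1 TPM in both libraries. Cyp39a1, which acts on 24-hydroxycholesterol, was highest at 25.9 ± 0.778 TPM, followed by Hsd3b7 at 5.95 ± 1.48 TPM (3.33 and 2.94 TPM in coding transcripts). Cyp7a1, the liver enzyme of bile acid synthesis, was at 0 counts in each. At its listed length 3 counts, the limit that a count of 0 allows, stand for 0.064 TPM (replicate 1) and 0.059 TPM (replicate 2), covering counting error only, and the upper bounds deposited were 1.02 and 0.950 TPM.

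In bulk tissue, fewer cells of a type and less RNA per cell cannot be told apart. All 8 forebrain markers reached 1 TPM in both libraries, from Dlx1 (234 TPM) to Emx2 (27.9 TPM). Most of Dlx1 was in noncoding transcripts, with 41.3 and 42.2 TPM in coding ones, and with coding transcripts only Lhx2 was highest (132 and 121 TPM). Radial glia and neuron markers were high, from Fabp7 (1227 TPM) to Hes1 (25.1 TPM) in radial glia and from Tubb3 (1116 TPM) to Rbfox3 (27.1 TPM) in neurons. Astrocytes, the main source of Apoe in the adult brain, had 3 of 6 markers at 1 TPM, from Slc1a2 (10.2 TPM) to Gfap (0.020 TPM). Microglia and macrophages, which also make Apoe, had 9 of 10, from C1qb (16.4 TPM) to Ptprc (0.580 TPM), with summed levels of 74.1 TPM in replicate 1 and 72.0 in replicate 2. Oligodendrocyte markers had 5 of 8, from Cldn11 (25.9 TPM) to Sox10 (0.395 TPM). Endothelial markers, led by Cldn5 (40.7 TPM) with Tek lowest (4.96 TPM), summed to 114 and 121 TPM. Mural and meningeal markers, from Col3a1 (82.8 TPM) to Pdgfrb (7.05 TPM), summed to 204 and 221 TPM. The part of any of these cells in the members' levels was not tested.

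The libraries differed little in these genes. By TPM, 32 of 33 members (97.0%) were higher in replicate 1, as were 73.8% of tested protein-coding genes. The members' median log2 ratio of TPM + 1, replicate 1 over replicate 2, was 0.14, against 0.10 over all 14566 protein-coding genes with a mean of at least 10 estimated counts. With counts scaled by TMM, which sets the bulk of genes equal between libraries, 20 members were higher in replicate 1 and 13 lower. Of the 14566 tested genes, 7202 were higher in replicate 1 on that scale. The members' median log2 ratio on that scale, also with 1 added, was 0.032, against -0.0020 over tested genes. The sign differed between TPM and TMM-scaled counts for 12 of the 33 members. Those measures differ in more than scaling, since TPM is also corrected for a length estimated in each library.

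By TPM + 1, 3 of 33 members were at least 25% higher in replicate 1 than in replicate 2, namely Insig2 (0.49 on the log2 scale), Cyp46a1 (0.42) and Hsd17b7 (0.35), against a background of 9.25%. None was past the same fold in the other direction, against 2.07%. By TMM-scaled counts, also with 1 added, no member passed in either direction, against 5.53% higher and 3.65% lower. Cyp46a1 was at 0.32, Nr1h3 at 0.31, Hsd17b7 at 0.23 and Insig2 at 0.12. These counts were expressed as a share of the library, as TPM is, before 1 was added. The absence of calls depends on that addition. Without it, Cyp46a1 (610 and 483 estimated counts) and Nr1h3 (59 and 41) would pass 25%, since the scaled library sizes were nearly equal. No background was computed without it. At 1.5-fold by TPM none passed in either direction, against 2.06%. With 1 added, the share of members past these folds was near or under the background in each case. The intervals deposited with each TPM did not overlap for 14 members (42.4%), all higher in replicate 1, a larger share than the 26.0% of tested genes. Those intervals surround the posterior mean, and the TPM of 6 members in each library lay outside its own interval. Intervals are narrower relative to the level where counts are high, and the tested genes were not matched to the members by count. The median absolute log2 ratio of TPM + 1 was 0.138 over members and 0.133 over tested genes.

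**Figure D3:**
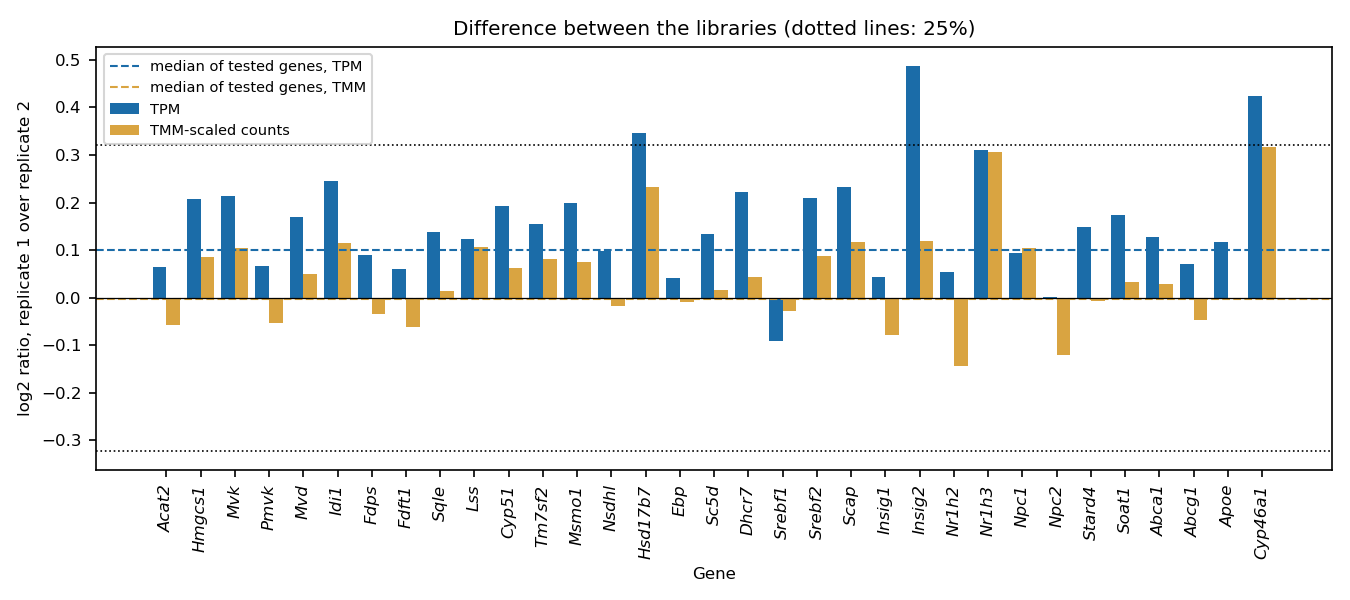
Log2 ratio of replicate 1 over replicate 2 for each member, by TPM + 1 (blue) and by TMM-scaled counts, also with 1 added (yellow). Dashed lines are at the median of tested genes and dotted lines at a difference of 25%. By TPM, Insig2, Cyp46a1 and Hsd17b7 pass the upper line, and by TMM-scaled counts with 1 added none does.

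Choroid plexus markers moved with the libraries. All 10 were higher in replicate 1 by TPM and by TMM-scaled counts, with a summed level of 515 TPM in replicate 1 and 277 in replicate 2, from Ttr (319 TPM on average) to Kl (0.150 TPM). Over tested protein-coding genes, 73.8% were higher in replicate 1 by TPM, and 7202 of 14566 by TMM-scaled counts. Of 9 erythroid markers 8 were higher in replicate 1 by TPM, but 5 were higher and 4 lower by TMM-scaled counts, with TPM sums of 11926 and 11170 TPM, from Hba-a2 (4899 TPM) to Klf1 (0.785 TPM). The part of either cell type in the members' differences was not tested.

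The transcript tables held 163 transcripts of the 33 genes. For 10 members a single transcript held 100% of the gene's TPM in both libraries. All of these except Abca1 had only 1 transcript in the annotation, which fixes that share in advance. For 13 the leading transcript held under 80% in both. The leading transcript was protein-coding in both libraries for 32 members, and the same in both for 30.

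In 6 members under 80% of the TPM lay in protein-coding transcripts in both libraries: Lss, Srebf1, Msmo1, Hsd17b7, Tm7sf2 and Npc1. Lss was lowest, with 48.0% in replicate 1 and 41.0% in replicate 2. Its coding transcripts summed to 20.3 and 15.9 TPM, and its short noncoding forms Lss-205 (retained intron, 425 bases) and Lss-202 (processed transcript, 352 bases) had 9.54 and 7.14 TPM and 5.14 and 9.20 TPM. Msmo1 had 61.2% and 62.9%, since the processed transcript Msmo1-206 held 45.6 and 38.2 TPM beside 80.5 and 72.0 TPM of the coding Msmo1-201. Coding transcripts of Msmo1 alone, 83.0 and 74.1 TPM, were below the gene level of Cyp51. Hsd17b7 had 62.6% and 61.4%, with 5.50 and 4.40 TPM in the processed transcript Hsd17b7-204. Tm7sf2 had 64.7% and 66.8%, with Tm7sf2-201 leading at 14.7 and 11.8 TPM. Npc1 had 68.0% and 62.3%, all of it in Npc1-201.

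**Figure D4:**
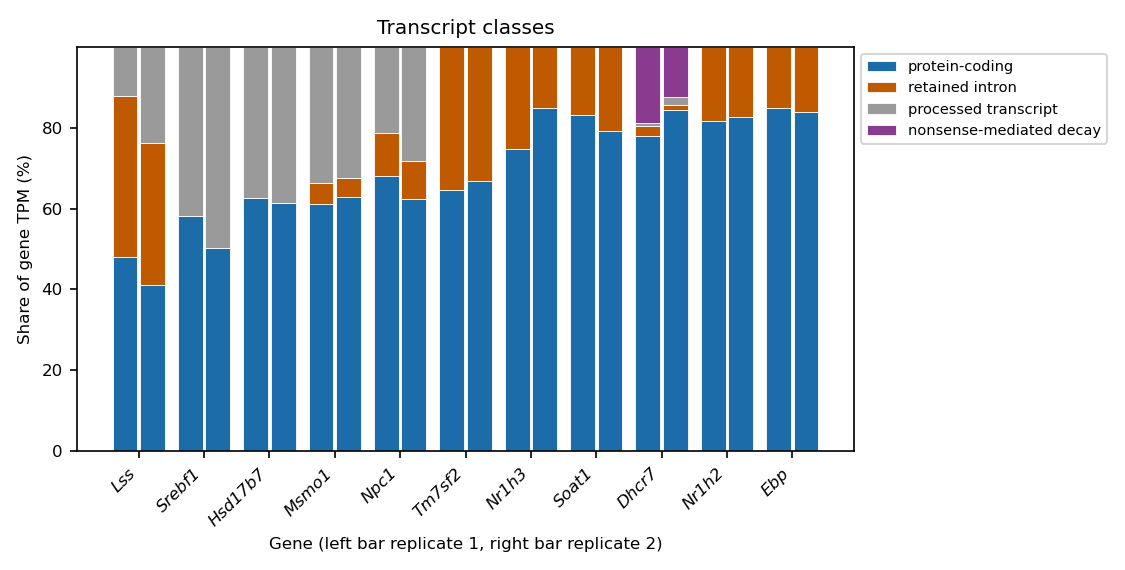
Share of each gene's TPM by transcript class, for the 11 members whose mean protein-coding share was under 90%, left bar replicate 1 and right bar replicate 2. Lss has the lowest coding share, at 48.0% and 41.0%.

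Srebf1 has several annotated starts, and as background an upstream one gives SREBP-1a and a downstream one SREBP-1c. The upstream form Srebf1-201 had 13.7 TPM in replicate 1 and 13.2 in replicate 2, and the downstream form Srebf1-207 had 7.87 and 7.76 TPM. The ratio of upstream over downstream was 1.74 and 1.70. The noncoding Srebf1-204, of 367 bases, had 11.4 and 17.2 TPM and led in replicate 2 (37.8% of the gene), whereas Srebf1-201 led in replicate 1 (32.1%). Coding transcripts of Srebf1 summed to 24.8 and 22.9 TPM, higher in replicate 1, while the gene as a whole was higher in replicate 2.

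By TPM, most of the gap of Insig2 between the libraries lay in 1 short form. Insig2-214, of 674 bases, had 6.34 TPM in replicate 1 and 0.030 in replicate 2, from 81.0 and 0.40 estimated counts. The whole gene had 1311 and 1205 estimated counts, so this gap rests on how few reads were divided between forms. The leading Insig2-201 had 15.0 and 13.9 TPM and Insig2-208 had 13.1 and 11.0 TPM. With posterior means the log2 ratio of the gene was 0.37. Without Insig2-214 the gene had 32.4 and 27.3 TPM, a log2 ratio of 0.24, or under 25%. The starts between 121327678 and 121328024 on chromosome 1 held 37.1 and 26.6 TPM of the gene.

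Nr1h2 and Nr1h3 also changed their leading transcript. Nr1h2-204 led in replicate 1 with 26.9 TPM, against 16.6 TPM in replicate 2, and Nr1h2-201 led in replicate 2 with 18.6 TPM, against 5.47 TPM in replicate 1. The gene total hardly moved. For Nr1h3 the leading form rests on few counts, with Nr1h3-202 at 62.3% in replicate 1 and Nr1h3-201 at 84.8% in replicate 2.

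The other members with a leading share under 80% kept the same leading transcript in both libraries. Dhcr7-202 held 71.3% in replicate 1 and 78.5% in replicate 2, beside Dhcr7-210, a form marked for nonsense-mediated decay, at 8.10 and 4.58 TPM. Ebp-201 held 61.7% and 56.5%, Mvk-201 held 68.7% and 66.7%, Stard4-201 held 67.0% and 69.2%, and Soat1-207 held 46.1% and 47.6%. Soat1-207 is the longest of these forms, at 8371 bases.

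For some members the level depends on how reads shared with other genes were divided. Acat2 and Acat3 matched at 97.7% identity over 1477 bases, and Acat3 was assigned 1.49 TPM in replicate 1 and 0.660 in replicate 2, against 296 and 284 TPM for Acat2. Acat2 also matched the chaperonin gene Tcp1 (394 ± 6.24 TPM) at 98.7% over 445 bases. Idi1 matched the pseudogene Gm13502, with 6.48 and 12.2 TPM, at 100% over 684 bases. Fdps matched 3 processed pseudogenes at 96.1% to 98.9%, of which Gm3571 was highest at 1.49 ± 0.431 TPM. Fdft1 shared 774 exon bases with Ctsb on the opposite strand (70.5 ± 2.29 TPM), and it matched the pseudogene Gm6781 (2.03 ± 0.297 TPM) at 97.4%. Tm7sf2 shared 532 exon bases with Vps51 (66.9 ± 10.3 TPM) on its own strand, or 12.1% of its exon length. Cyp51 shared 166 exon bases with Akap9 (292 ± 8.41 TPM) on the opposite strand. Npc1 shared 511 exon bases with Rmc1 (29.7 ± 0.396 TPM) on the opposite strand, and matched it at 100% over 323 bases. Scap shared 985 exon bases, or 13.2% of its exon length, with 5830462I19Rik (0.63 ± 0.113 TPM) on the opposite strand. In all, 8 members shared exon bases with another gene, and 6 matched another gene by sequence. For Npc1 and Scap the only match was the overlapping gene itself, so it is not a separate copy. The sources used here do not say whether counting used strand, so these levels are uncertain to that extent.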

How the data were processed

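Total RNA from 2 forebrain libraries was analysed. The authors made a gene table and a transcript table per library on mm10, per the file headers. The deposited expected counts are estimated counts of reads, divided between features that share them. The deposited TPM values are length-normalised by the authors, and a second TPM column holds posterior means. The transcripts' percent of their gene, also deposited, was recomputed here from TPM. Lower and upper bounds of TPM (a signal) were deposited with no stated level. Aligner and strand setting: not given in the sources used here. Depth was 35378462 (replicate 1) and 36793284 (replicate 2) expected counts, so levels of genes with few counts are the least precise. Errors cover 2 libraries.

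Genes matched GENCODE M21 by identifier for symbols, classes and coordinates. The 33 members were named by symbol, and the members and lists were chosen with earlier results of these data known. The text names all 33, the 2 highest and the lowest of each other pathway list, Lbr and Acat3, the highest and lowest marker of each cell type list (the midbrain and hindbrain list is not reported here), members with a library difference of 25%, those with a leading transcript under 80% or changing, and those whose promoter holds a motif. Neighbouring and near-identical genes (95% identity over 200 bases, BLAST 2.17.0) and single transcripts were picked once their values had been seen. A list's level is the median of its members' mean TPM, with the SD of both library medians. Library ratios use TPM, or scaled counts as a share of the library, with a pseudocount of 1, over genes averaging at least 10 expected counts. Expected counts were scaled without rounding with edgeR 4.0.16 (TMM) in R 4.3.3. As an alternative, counts rounded to whole numbers were scaled by size factors of DESeq2 1.42.0. Other steps used Python 3.11.15, pandas 2.3.3 and numpy 2.4.6. The fold rule for library differences was tried on simulated counts with known folds, all larger than the threshold in use. Those counts held counting error only, with no spread between replicates, so the trial lends no support to the calls. No significance test was run, since with 2 values the smallest p of an exact sign test (two-sided) is 0.5. Alternatives were the posterior mean, other pseudocounts, filters, thresholds, scalings, summaries and promoter windows, and each library left out. Coding transcripts only, the shorter SREBP motif, the promoter with the most TPM and the background of genes at 1 TPM were chosen after seeing the data.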

Additional observations from a re-analysis of the deposited data

How the results depend on the processing

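Leaving out 1 of 2 libraries gives the other's value, which lies within 1 SD of the mean by construction and says nothing about stability. Members with a leading transcript under 80% numbered 15 from replicate 1 alone and 13 from replicate 2 alone. With the mean of log2 values over members, synthesis was at 66.6 TPM, regulation 31.9, uptake 22.8 and export 20.0, and the log2 contrast of synthesis minus regulation was 1.04 and minus uptake 1.5. With protein-coding transcripts only, regulation was at 32.2 TPM and uptake at 13.5, synthesis minus regulation was 0.85, synthesis minus uptake 2.04 and mevalonate stretch minus post-lanosterol steps 1.49. The log2 ratios were then 2.13 for Srebf2 over Srebf1, 2.78 for Npc2 over Npc1 and -1.92 for Tm7sf2 over Lbr. With posterior means, synthesis minus uptake was 1.74, Nr1h2 over Nr1h3 5.14 and Tm7sf2 over Lbr -1.34. A pseudocount of 0.1 gave 1.82 for synthesis minus uptake. A pseudocount of 1 gave 4.75 for Nr1h2 over Nr1h3, -1.93 for Abca1 over Abcg1 and -1.36 for Tm7sf2 over Lbr. Without Acat2, synthesis minus uptake was 1.68 and mevalonate stretch minus post-lanosterol steps 1.06. Members called higher in replicate 1 numbered 0 with TMM scaling, 0 with DESeq2 size factors and 0 at 1.5-fold, against 3, each with a pseudocount of 1. They numbered 4 with a pseudocount of 0.1 and 4 with posterior means, where Nr1h3 was added at log2 ratios of 0.50 and 0.33. No background was computed for those counts of 4. Synthesis genes with an SREBP motif numbered 2 with the shorter motif, against 1. No contrast or ratio changed sign under any alternative run. Posterior means moved 3 of 33 member levels by over 1 SD, and rescaling without globin and mitochondrial genes multiplied all 33 by about the same factor (1.262 to 1.266). Nr1h3 rests on the fewest counts of any member (59 in replicate 1 and 41 in replicate 2). No paired analysis was possible because there is 1 group.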
